A study of Mus musculus with 12 samples.

Results

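Genes of peroxisome proliferator-activated receptor gamma (PPARG) and of the handling of fatty acids and cholesterol were examined in mouse lung endothelial cells (MLECs) of mice bred for endothelial deletion of Sp1 and Sp3 (dKO) and of their controls (CTR). The 10 genes, Pparg, Fabp4, Fabp5, Lpl, Plin2, Angptl4, Acsl1, Cpt1a, Apoe and Abca1, were taken by name from the 28689 genes of the expression table, and all 10 were found and tested. There were 12 RNA-seq libraries, 6 of CTR and 6 of dKO cells. CTR mice were VE-CAD-CreERT2-/Sp1 fl/fl/Sp3 fl/fl littermates (labelled WT) and dKO mice were VE-CAD-CreERT2+/Sp1 fl/fl/Sp3 fl/fl (labelled endothelial Sp1/Sp3 knockout). Both groups had received tamoxifen, which switches on the Cre recombinase driven by the promoter of VE-cadherin, a junction protein of endothelial cells, and CTR mice carried no Cre. MLECs were taken from lungs of adult mice by beads against CD31, grown, selected again by beads against intercellular adhesion molecule 2 and used at passages 1 to 3. How many mice a library pools is not stated, and p-values measure the spread between libraries, which may be technical.

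PPARG is a nuclear receptor that binds DNA together with a retinoid X receptor (RXR) and turns on genes of fatty acid uptake and storage, among them Fabp4, Lpl and Plin2. In capillaries, lipoprotein lipase frees fatty acids from lipoproteins, and endothelial cells carry them inwards with CD36 and fatty acid-binding proteins. Excess cholesterol leaves cells through ABCA1 to apolipoproteins such as APOE, under control of the liver X receptors (LXRs), and alveolar macrophages depend on PPARG to clear the lipid of surfactant.

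Of the 10 genes, 7 were higher in dKO than in CTR libraries, none was lower, and 3 (Pparg, Angptl4 and Cpt1a) did not pass the test, an adjusted p under 0.05 in limma on log2(FPKM + 1). At an unadjusted p under 0.05, 8 were higher and 0 lower, and limma-voom on recovered fragments gave 7 and 0. Over all 12467 genes tested, 20.4% were higher and 32.6% lower. Another scaling of the libraries moved that balance, since higher genes made up 38.5% of all calls with FPKM as deposited and 51.6% with median-of-ratios scaling. The median log2 fold change was 0.48 over the 10 genes and -0.10 over all genes tested. Apoe alone also exceeded an absolute log2 fold change of 1.5, as did 1.98% of all genes tested. Fabp4 alone had each dKO library above each CTR library, which held for 11.3% of genes tested, and no gene of the 10 had each dKO library below each CTR library, which held for 16.1%. Differences between genes in level are read here in FPKM, which scales the fragments of a gene to its length and to the library total.

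**Figure D1:**
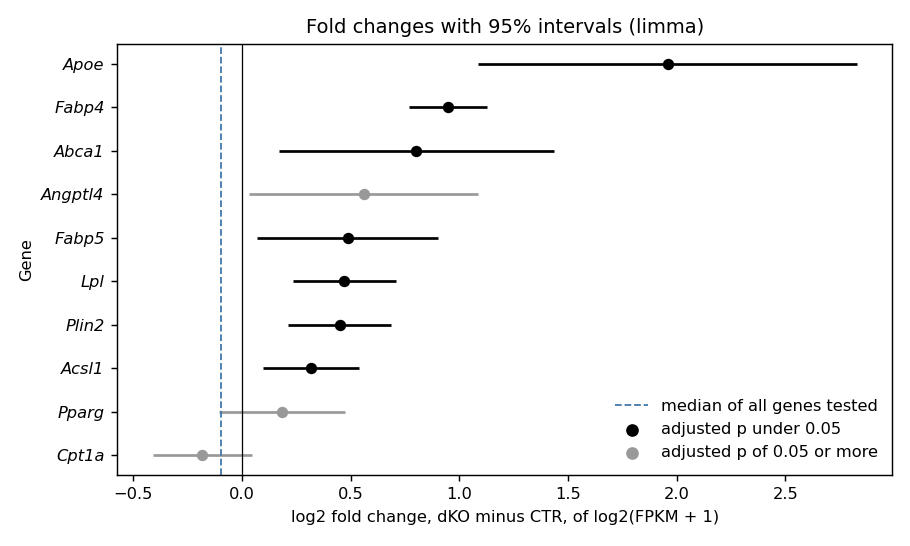
Log2 fold change of each of the 10 genes (dKO minus CTR, horizontal axis, in log2(FPKM + 1) units), with lines for the 95% interval from limma and black for an adjusted p under 0.05. Apoe lies farthest to the right at 1.96, and Cpt1a is the only gene left of 0, at -0.18.

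The libraries were checked by the targeted genes first, and both were still measured in dKO. Sp1 was lower in each dKO library than in each CTR library (21.2 ± 1.77 FPKM in CTR and 10.6 ± 1.53 in dKO, SD, n = 6 each), and Sp3 was 27.7 ± 2.31 and 25.0 ± 1.64 FPKM, a difference that did not pass the test (log2 fold change -0.14, adjusted p 0.0902). Depth was similar, with 16549824 to 17467059 fragments in CTR and 15523054 to 17938286 in dKO libraries, and for a 2 kb gene a single fragment equalled 0.0279 to 0.0322 FPKM. Besides endothelial genes the libraries held RNA of other cells: collagen Col1a1 stood at 1173 and 572 FPKM in CTR and dKO, against 33.4 and 60.2 for the endothelial marker Pecam1. All 10 macrophage markers were higher in dKO, with summed levels of 713 to 1245 FPKM in CTR and 2390 to 5305 in dKO. Of 10 endothelial markers 9 were higher (sums of 150.1 to 233 and 280.0 to 376 FPKM). Of 9 fibroblast genes tested 1 was higher (Dcn, 6.82 and 17.8 FPKM) and 3 were lower, the collagens Col1a1, Col1a2 and Col3a1. The share of lower fibroblast genes was near the 32.6% of all genes tested. Fibroblast sums, in which these collagens weigh most, were 2193 to 3004 FPKM in CTR and 870.1 to 1955 in dKO. In such bulk RNA, more cells of a type and more RNA per cell cannot be told apart, and the part of these shifts in the results below was not tested.

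Sp1 and Sp3 bind GC boxes, so the promoters of the 10 genes were read from RefSeq (GRCm38.p6; 250 bases before to 50 after each start). Entries matched 6 of the 10 genes, with 11 windows; Fabp4, Fabp5, Lpl and Angptl4 were not matched. The box GGGCGG, on either strand and counted with overlaps, was held by 35.7% of all 32851 windows of that table and by 6 of the 11 windows, which belong to 5 of the 6 genes. No share per gene was computed, and a gene with several windows has more chances to hold a box. The 6 windows with a box lay between percentiles 72.2 and 99.1 of all windows in GC content. The 3 Apoe windows held no box. Counts were 7 in the first Acsl1 window and 0 in the second, 3 in Cpt1a, 2 in Abca1, 1 in Plin2, and 1, 2 and 0 in the 3 Pparg windows. Only exact direct repeats of AGGTCA were searched, spaced by 1 base (PPAR-RXR) or by 4 bases (LXR-RXR). They were in none of the 11 windows and in 0.040% and 0.015% of all windows. Sites whose bases differ from AGGTCA were not counted, so these windows may still hold sites for either pair. Shown 5′ to 3′ are the first windows of Acsl1 (chr8:46470787-46471086, plus strand), Cpt1a (chr19:3323051-3323350, plus strand), Abca1 (chr4:53159846-53160145, minus strand) and Apoe (chr7:19699139-19699438, minus strand), chosen to span the range from many boxes to none, with GGGCGG or CCGCCC in capitals.
Acsl1: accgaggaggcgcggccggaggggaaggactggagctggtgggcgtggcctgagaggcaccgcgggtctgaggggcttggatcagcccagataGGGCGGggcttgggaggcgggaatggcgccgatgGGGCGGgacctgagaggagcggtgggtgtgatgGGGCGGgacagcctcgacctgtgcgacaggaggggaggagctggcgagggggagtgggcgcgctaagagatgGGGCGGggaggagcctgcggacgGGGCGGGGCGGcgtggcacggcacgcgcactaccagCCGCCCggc
Cpt1a: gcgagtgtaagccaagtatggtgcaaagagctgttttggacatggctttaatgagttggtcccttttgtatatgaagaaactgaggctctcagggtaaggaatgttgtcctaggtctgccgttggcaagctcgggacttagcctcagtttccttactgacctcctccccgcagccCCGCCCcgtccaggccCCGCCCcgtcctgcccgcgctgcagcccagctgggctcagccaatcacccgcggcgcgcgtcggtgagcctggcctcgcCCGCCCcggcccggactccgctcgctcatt
Abca1: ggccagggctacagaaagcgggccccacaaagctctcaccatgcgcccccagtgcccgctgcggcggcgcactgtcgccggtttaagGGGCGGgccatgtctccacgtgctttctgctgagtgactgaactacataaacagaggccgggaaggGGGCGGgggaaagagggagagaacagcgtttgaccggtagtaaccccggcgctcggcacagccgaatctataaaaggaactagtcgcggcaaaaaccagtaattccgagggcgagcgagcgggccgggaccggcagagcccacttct
Apoe: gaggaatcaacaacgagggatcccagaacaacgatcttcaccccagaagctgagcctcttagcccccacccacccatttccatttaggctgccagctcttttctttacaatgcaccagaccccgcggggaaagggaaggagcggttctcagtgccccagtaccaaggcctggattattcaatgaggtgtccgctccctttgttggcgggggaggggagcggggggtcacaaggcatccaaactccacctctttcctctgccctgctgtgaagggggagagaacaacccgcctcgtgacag

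The first question was whether the receptor itself changed. Pparg (ENSMUSG00000000440; GRCm39 chromosome 6, 115337675 to 115468268, plus strand) had a lowest, median and highest level of 3.77, 5.15 and 6.03 FPKM in CTR and 4.29, 5.79 and 8.21 FPKM in dKO, from 194 to 426 fragments a library. The groups overlapped: 2 dKO libraries, replicates 1 and 3, lay above all CTR libraries and 2 lay under the CTR median. This difference did not pass the test (log2 fold change 0.18, SE 0.13, 95% interval -0.11 to 0.47, adjusted p 0.266; exact two-sided permutation p 0.238).

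The other receptors and their coregulators stood in a list of 20 genes, of which 17 were tested, none was higher and 5 were lower in limma (1 and 8 at an unadjusted p under 0.05, and also none higher in limma-voom). The share of lower genes was not above the 32.6% of all genes tested. Rxrb, which encodes RXR beta, fell from 16.4 ± 1.91 to 11.4 ± 1.04 FPKM (log2 fold change -0.49, adjusted p 0.000332), and Ncor1, a corepressor that nuclear receptors recruit, fell from 22.2 ± 1.20 to 15.8 ± 1.98 FPKM (-0.47, adjusted p 0.000329); neither gene had overlapping groups. Rxra, the more abundant partner (26.5 and 25.9 FPKM), had a log2 fold change of -0.02, and Ppard, the sister receptor, of 0.02 at 11.7 and 11.8 FPKM. Ppara, the receptor linked to fatty acid oxidation, was under the limit for testing at 0.765 and 0.418 FPKM. The median log2 fold change of the 17 genes was -0.16.

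Fatty acid-binding proteins, which shuttle fatty acids through the cytoplasm, form a family of 10 genes, 4 of which were tested and called higher; 1 of them, Fabp7, entered the test only through dKO, so this count is no support. Fabp4 (ENSMUSG00000062515; GRCm39 chromosome 3, 10268785 to 10273737, minus strand), a classical PPARG target made by fat cells, macrophages and capillary endothelium, stood at 13.4, 15.3 and 19.2 FPKM (lowest, median, highest) in CTR and 27.5, 31.3 and 34.2 FPKM in dKO. No dKO library came near the CTR range, and the highest CTR library, replicate 4, lay well below the lowest dKO library. Its log2 fold change of 0.95 (SE 0.08, adjusted p 3.05e-06) kept between 0.91 and 1.04 over 26 alternative settings, and the exact permutation p of 0.00216 is the smallest that 6 against 6 libraries allow. An annotated noncoding RNA on the opposite strand, Gm66293, covers all 4953 bases of Fabp4, and since the use of strand in counting is not given, their fragments cannot be told apart. Noncoding genes on the opposite strand also overlap Apoe (over 3905 bases), Lpl, Pparg, Fabp5, Acsl1 and Cpt1a.

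Fabp5 (ENSMUSG00000027533; GRCm39 chromosome 3, 10077602 to 10081674, plus strand), the epidermal form, varied more. It stood at 29.7, 38.2 and 46.0 FPKM in CTR and 33.8, 49.6 and 85.4 FPKM in dKO. The groups overlapped through dKO replicates 1 and 4, and replicates 2 and 6 were the highest. A log2 fold change of 0.49 (SE 0.19, adjusted p 0.0479) passed the test narrowly and was lost in 12 of 26 alternative settings, among them leaving out any one of CTR replicates 1 to 5 or of dKO replicates 2, 3, 5 and 6 (log2 fold change 0.35 to 0.61 over all such leavings-out).

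Fragments also lay on near-identical copies of Fabp5, and not evenly over the libraries. Gm6166 matches 409 bases of Fabp5 at 98.3% identity and Gm14328 matches 408 bases at 97.3%; both were picked after their values were seen. Gm6166 held 16 to 45 fragments in the CTR libraries and 1605, 50, 2713, 741, 52 and 72 in dKO replicates 1 to 6. Gm14328 had the same split, with at most 4 fragments in CTR and 242, 9, 352, 110, 11 and 14 in dKO. Replicates 1, 3 and 4 of dKO thus carried the large numbers, and replicates 1 and 4 were those with the lowest Fabp5. With the 3 genes summed at the length of Fabp5, a setting added after seeing the data, the level was 37.9 ± 6.90 FPKM in CTR and 71.0 ± 17.6 in dKO, and each dKO library (51.9 to 97.2 FPKM) lay above each CTR library (30.1 to 46.7). Summed, the log2 fold change was 0.87 (SE 0.16, adjusted p 0.000612), against 0.49 for Fabp5 alone. Where the fragments on the copies arose was not tested.

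**Figure D2:**
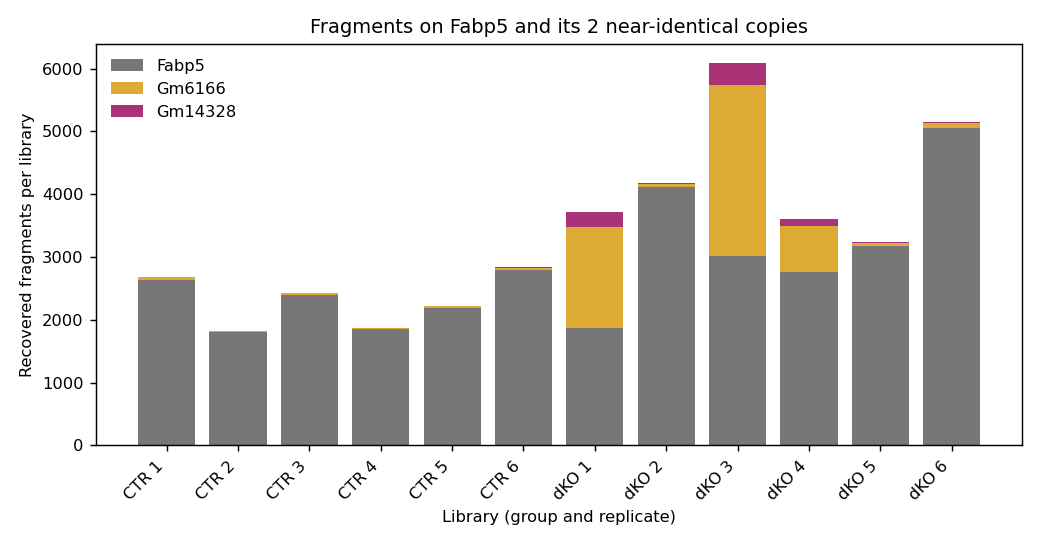
Stacked bars give, for each of the 12 libraries, the recovered number of fragments on Fabp5 (grey) and on its near-identical copies Gm6166 (yellow) and Gm14328 (purple). Grey alone overlaps between the groups, the yellow and purple parts are large in dKO replicates 1, 3 and 4, and the whole bars run from 1819 to 2834 in CTR and from 3242 to 6089 in dKO.

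Among the other family members, Fabp3, the heart form, rose from 3.96 ± 0.991 to 13.1 ± 3.06 FPKM (log2 fold change 1.51, adjusted p 7.6e-06), with no overlap between groups. Fabp7, the brain form, was at 0.376 to 0.687 FPKM in CTR and 2.17 to 5.1 FPKM in dKO, given as levels only: with 1 FPKM in 6 libraries needed for a test, a gene this low in CTR had to differ to be tested. Lipg, Plin4, Acss1 and Adrb3 below, with CTR means under 1 FPKM, are for the same reason given as levels only, and the counts of their lists include them. Fabp6, Fabp9 and Pmp2 were not analysed here.

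**Figure D3:**
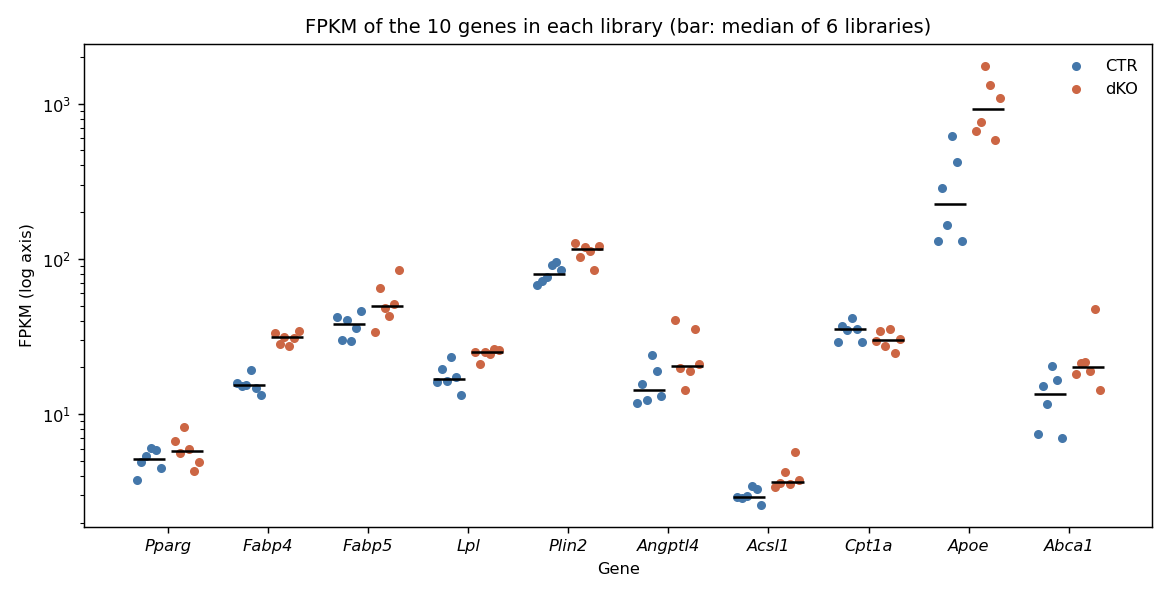
FPKM of the 10 genes in each library (vertical log axis; blue points for the 6 CTR and orange points for the 6 dKO libraries in order of replicate number, black bars for the median). Fabp4 is the gene whose groups do not overlap, Apoe spans from 130.5 to 1751 FPKM, and single dKO libraries stand high for Abca1 (47.6) and Acsl1 (5.74).

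Lpl (ENSMUSG00000015568; GRCm39 chromosome 8, 69284603 to 69360100, plus strand) encodes lipoprotein lipase, which cuts triglycerides of circulating lipoproteins. Its level was 13.3, 16.8 and 23.5 FPKM in CTR and 21.0, 25.1 and 26.2 FPKM in dKO (lowest, median, highest). Only dKO replicate 2 fell within the CTR range, which CTR replicate 4 extended upwards, and dKO libraries were more alike (coefficient of variation 7.66% against 19.7%). Lpl rose by a log2 fold change of 0.47 (SE 0.11, adjusted p 0.00321).

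Of 22 genes of fatty acid uptake and lipoprotein handling, 21 were tested, 10 were higher and 1 was lower (median log2 fold change 0.45), against 20.4% and 32.6% of all genes tested. Without Fabp4, Fabp5, Lpl and Angptl4, 7 of 17 were higher and 1 was lower, with a median of 0.22. Gpihbp1, which carries lipoprotein lipase across the capillary wall, rose from 14.8 ± 2.53 to 31.3 ± 6.77 FPKM (1.03, adjusted p 6.79e-05) and Cd36, the fatty acid translocase, from 18.5 ± 5.77 to 29.5 ± 4.06 FPKM (0.69, adjusted p 0.00373). Lipg, the endothelial lipase, stood at 0.945 ± 0.307 and 1.82 ± 0.450 FPKM. Both counts of higher genes include Lipg, although it reached the filter mainly through its dKO levels. Vldlr, a receptor for triglyceride-rich lipoproteins, was the only called fall, from 24.8 ± 6.15 to 11.6 ± 2.77 FPKM (-1.03, adjusted p 0.000364), with no overlap between groups. Gpihbp1 and Cd36 are themselves made by capillary endothelium. Of the 10 endothelial markers 9 were higher (median log2 fold change 0.83), as were all 10 macrophage markers (median 1.9). The part of either cell type in these rises was not tested.

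Angptl4 (ENSMUSG00000002289; GRCm39 chromosome 17, 33992724 to 34000804, minus strand), a secreted inhibitor of lipoprotein lipase that PPARs and hypoxia induce, stood at 11.9, 14.4 and 24.1 FPKM in CTR and 14.3, 20.3 and 40.7 FPKM in dKO. Only dKO replicates 1 and 5 (40.7 and 35.2 FPKM) lay above the CTR range, and dKO replicate 3 lay under the CTR median. With a log2 fold change of 0.56 (SE 0.24, adjusted p 0.0684), Angptl4 missed the threshold. It passed with median-of-ratios scaling (adjusted p 0.0378), with array weights (0.0286), without CTR replicate 4 (0.0287) or without dKO replicate 3 (0.0269). In the angiopoietin-like family of 7 genes, 5 were tested, 1 was higher and 3 were lower, against 20.4% and 32.6% of all genes tested. Angptl2 rose from 9.99 ± 2.08 to 14.3 ± 1.16 FPKM (log2 fold change 0.50, adjusted p 0.00299), while Angptl6 fell from 10.8 ± 3.66 to 1.90 ± 0.876 FPKM (-2.02, adjusted p 1.06e-05) and Angptl7 from 5.92 ± 2.47 to 1.48 ± 0.709 FPKM (-1.44, adjusted p 0.000314).

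Plin2 (ENSMUSG00000028494; GRCm39 chromosome 4, 86565912 to 86588459, minus strand) encodes the perilipin that coats lipid droplets of most cells. At 67.8, 80.4 and 95.1 FPKM in CTR and 85.3, 116.0 and 127.5 FPKM in dKO (lowest, median, highest), it came after Apoe in level among the 10 genes. All CTR libraries lay below 5 of the dKO libraries, whereas dKO replicate 5, at 85.3 FPKM, lay within the CTR range. Plin2 rose by 0.45 on the log2 scale (SE 0.11, adjusted p 0.00404), and 0.53 (adjusted p 0.000886) without dKO replicate 5.

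The droplet list of 20 genes had 14 tested, 6 higher and 2 lower, against 20.4% and 32.6% of all genes tested. Its median was 0.06. Coat and lipolysis genes made up the named rises: Plin3 from 49.8 ± 4.56 to 68.2 ± 5.45 FPKM (log2 fold change 0.45, adjusted p 0.000313), Hilpda, an inhibitor of adipose triglyceride lipase, from 8.89 ± 1.95 to 16.3 ± 3.38 FPKM (0.81, adjusted p 0.0006), and Pnpla2, which encodes that lipase, from 26.1 ± 4.32 to 34.4 ± 3.95 FPKM (0.39, adjusted p 0.00746). Plin4, another coat gene, stood at 0.819 ± 0.727 and 2.98 ± 0.655 FPKM. It is 1 of the 6 counted as higher, although it reached the filter mainly through its dKO levels. The 2 falls were both genes of the last step of triglyceride synthesis. Dgat2 fell from 4.05 ± 2.05 to 1.36 ± 0.421 FPKM (-1.03, adjusted p 0.00156) and Dgat1 from 7.38 ± 0.601 to 5.21 ± 0.860 FPKM (-0.44, adjusted p 0.0019), without overlap between groups for either. Defining genes of fat cells were at or near 0: Adipoq, which encodes adiponectin, was at 0.0288 and 0.00684 FPKM and Plin1, the perilipin of fat cells, at 0.0125 FPKM in CTR and 0 in each dKO library. Of 10 adipocyte markers, Lep, Cfd and Pck1 were not analysed here. The other 7 summed to 1.47 to 3.95 FPKM in CTR and 4.98 to 6.88 in dKO. Only Adrb3 (0.609 to 1.23 and 1.91 to 3.08 FPKM) and Plin4 were tested, both called higher and both through their dKO levels.

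Acsl1 (ENSMUSG00000018796; GRCm39 chromosome 8, 46924063 to 46990145, plus strand), which activates long-chain fatty acids to acyl-CoA, had the lowest level of the 10 genes. It stood at 2.61, 2.94 and 3.47 FPKM in CTR and 3.42, 3.68 and 5.74 FPKM in dKO, from 465 to 1053 fragments a library. One dKO library, replicate 1, lay within the CTR range and replicate 5 stood alone above the rest. For Acsl1 the log2 fold change was 0.32 (SE 0.10, adjusted p 0.0192), and 0.23 (adjusted p 0.0234) without replicate 5. Among 9 acyl-CoA synthetases, 7 were tested, 3 were higher and 1 was lower, against 20.4% and 32.6% of all genes tested. Acss1, a mitochondrial enzyme that activates acetate, stood at 0.950 ± 0.155 and 2.59 ± 0.447 FPKM. It is 1 of the 3 counted as higher but reached the filter mainly through its dKO levels, so that count is no support. Acsl5 rose from 12.8 ± 0.717 to 16.9 ± 1.06 FPKM (log2 fold change 0.38, adjusted p 0.000163), while Acsl4, which prefers arachidonic acid, fell from 53.3 ± 18.5 to 32.2 ± 4.12 FPKM (-0.64, adjusted p 0.02).

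Cpt1a (ENSMUSG00000024900; GRCm39 chromosome 19, 3371853 to 3437996, plus strand) encodes the carnitine palmitoyltransferase that admits fatty acids to mitochondria. It stood at 29.1, 35.2 and 41.8 FPKM in CTR and 24.6, 30.2 and 35.1 FPKM in dKO. All 6 dKO libraries lay under the CTR median, but only replicates 3 and 5 lay under all CTR libraries. Cpt1a had a log2 fold change of -0.18 (SE 0.11, 95% interval -0.41 to 0.04, adjusted p 0.159), the only negative one of the 10. Its sister Cpt1c stood at 4.42 and 4.73 FPKM, with no call, and Cpt1b at 0.0144 and 0.0139 FPKM. In the list of the carnitine shuttle and beta-oxidation, 22 of 24 genes were tested, 2 were higher and 8 were lower, with a median of -0.15. The share of lower genes was near the 32.6% of all genes tested, and the median near the -0.10 of all genes tested, so neither count nor median is a result about the list. Cpt2, on the inner side of the mitochondrial membrane, fell from 21.7 ± 4.49 to 14.2 ± 1.87 FPKM (-0.56, adjusted p 0.00296), and Acot2, a mitochondrial acyl-CoA thioesterase, from 26.1 ± 6.94 to 5.43 ± 1.49 FPKM (-2.07, adjusted p 3.36e-06), the latter without overlap between groups. Rises were seen for Ucp2, an uncoupling protein (12.2 ± 2.74 to 22.6 ± 6.55 FPKM, 0.82, adjusted p 0.00224), and Hadhb, a subunit of the trifunctional protein (9.52 ± 0.960 to 11.4 ± 0.542 FPKM, 0.24, adjusted p 0.0115).

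**Figure D4:**
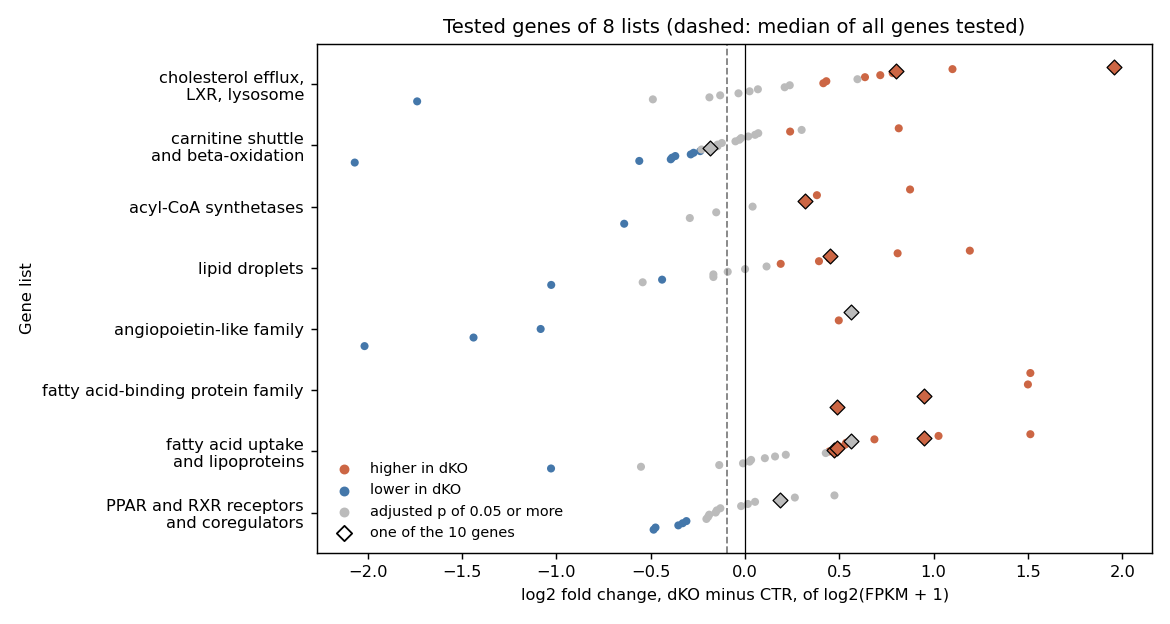
Each point is a tested gene of 1 of 8 lists (vertical axis), placed by its log2 fold change (horizontal axis, dKO minus CTR); orange and blue mark adjusted p under 0.05, grey no call, and diamonds the 10 genes. Of the 10 genes only Angptl4, Pparg and Cpt1a are grey. The uptake list has 10 of 21 genes called higher, against 20.4% of all genes tested. The beta-oxidation list has 8 of 22 called lower, near the 32.6% of all genes tested.

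Apoe (ENSMUSG00000002985; GRCm39 chromosome 7, 19430034 to 19434947, minus strand) encodes apolipoprotein E, a carrier of cholesterol that macrophages secrete in large amounts. Its level was 130.5, 226 and 617 FPKM in CTR and 587.5, 922 and 1751 FPKM in dKO (lowest, median, highest). CTR replicates 1, 3 and 6 were low, at 130.5 to 164.7 FPKM, and CTR replicate 4, at 617 FPKM, lay above the lowest dKO library, replicate 5. The log2 fold change was 1.96 (SE 0.40, 95% interval 1.09 to 2.83, adjusted p 0.00137), with dKO above the CTR median in 6 of 6 libraries. Apoe stood at rank 107 among the 12467 genes by absolute log2 fold change. Beside it, the 10 macrophage markers had a median log2 fold change of 1.9. Among them Cd68 rose from 85.2 ± 17.0 to 340 ± 96.8 FPKM (1.96, adjusted p 2.91e-06). Replicate 3 of dKO, the highest library for Apoe, was also highest in summed macrophage markers (5305 FPKM). CTR replicate 4 was the highest CTR library in summed macrophage, endothelial, fibroblast and alveolar type 2 markers (1245, 233, 3004 and 552 FPKM). The lowest CTR sum of macrophage markers was in replicate 6 (713 FPKM, Apoe 130.5 FPKM). Their lowest mean of log2(FPKM + 1) was in CTR replicate 2 (4.149, Apoe 287 FPKM). The part of macrophages in the Apoe rise was not tested.

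Abca1 (ENSMUSG00000015243; GRCm39 chromosome 4, 53030787 to 53159900, minus strand), the pump that loads cholesterol onto apolipoproteins, stood at 7.01, 13.5 and 20.4 FPKM in CTR and 14.4, 20.2 and 47.6 FPKM in dKO. The groups overlapped, and of the 3 dKO libraries above all CTR libraries replicate 5 stood far from the rest. The log2 fold change was 0.80 (SE 0.29, adjusted p 0.0346), and without dKO replicate 5 it was 0.59 (adjusted p 0.0633). Without CTR replicate 1, 3 or 6, or dKO replicate 2 or 3, the call was also lost (adjusted p 0.0538 to 0.0753). Without dKO replicate 5, the number of the 10 genes called higher fell from 7 to 5, with Fabp5 and Abca1 lost.

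In the list of cholesterol efflux, LXR and lysosomal cholesterol genes, 18 of 20 were tested, 8 were higher and 1 was lower, with a median of 0.33. Of all genes tested, 20.4% were higher and 32.6% lower. Without Apoe and Abca1, 6 of 16 were higher, with a median of 0.22. Apart from Apoe and Abca1, the largest called rises were those of Nceh1 and Npc2. Nceh1, which frees cholesterol from its esters, rose from 6.89 ± 1.10 to 16.2 ± 4.14 FPKM (log2 fold change 1.10, adjusted p 5.45e-05) and Npc2, which hands cholesterol out of lysosomes, from 89.4 ± 12.3 to 154.3 ± 18.0 FPKM (0.78, adjusted p 4.14e-05), both without overlap between groups. The LXR genes were not called, Nr1h3 at 12.9 ± 5.96 and 15.2 ± 5.67 FPKM and Nr1h2 at 21.7 ± 2.63 and 22.7 ± 0.772 FPKM, nor was Abcg1, the partner pump, at 8.24 ± 1.15 and 10.1 ± 3.44 FPKM. Apoc1, an apolipoprotein gene beside Apoe, stood at 6.05 ± 3.44 FPKM in CTR and 1.03 ± 0.893 FPKM in dKO. It is the 1 lower gene of the list and is given as levels only. With dKO levels of 0 to 2.47 FPKM, it reached the filter mainly through CTR.

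Markers of alveolar macrophages, the lung cells known for PPARG, were counted apart from the general macrophage markers. Of 12 alveolar macrophage markers 8 were tested, 2 were higher and 3 were lower, with a median log2 fold change of -0.07. These shares were near the 20.4% higher and 32.6% lower of all genes tested, and the median near their -0.10. Neither count nor median is thus a result about the list. Sums were 1032 to 1751 FPKM in CTR and 498 to 1802 in dKO. Chil3 stood at 1107 ± 243 and 1061 ± 404 FPKM, whereas Marco fell from 118.9 ± 20.8 to 43.1 ± 39.6 FPKM (-1.91, adjusted p 0.00404) and Siglecf was at 0.795 and 0.348 FPKM. Plet1 fell from 8.06 ± 1.77 to 3.77 ± 1.39 FPKM (-0.951, adjusted p 0.00058, no overlap between groups). Car4 fell from 4.81 ± 0.553 to 3.13 ± 1.36 FPKM (-0.555, adjusted p 0.0243). The rises were Itgax, an integrin subunit, from 7.07 ± 1.35 to 12.5 ± 0.860 FPKM (0.76, adjusted p 6.71e-05, no overlap between groups) and Cd200r4 from 3.93 ± 1.79 to 8.79 ± 2.84 FPKM (1.02, adjusted p 0.00272). Of 10 alveolar type 2 markers 1 was higher and 0 were lower, and of 9 tested smooth muscle and pericyte genes 2 were higher and 1 was lower.

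Within the groups, the 10 genes varied unevenly. Deviations of log2(FPKM + 1) from the group mean were correlated over the 12 libraries for the 45 pairs of genes, as a description, since all points of a library share its cells and depth. Pearson's r ran from -0.52 to 0.82 with a median of 0.19. Abca1 varied most closely with Acsl1 (0.82), Fabp4 with Lpl (0.80) and Pparg with Plin2 (0.72) and Apoe (0.68). Against the mean of the macrophage markers, r was 0.63 for Pparg and 0.62 for Apoe; against the mean of the endothelial markers it was 0.72 for Lpl and 0.68 for Abca1. The genes most like Pparg by this measure were Cxcr1 (0.955), Pts (0.93), Pnpla7 (0.93), Capn15 (0.92) and N4bp2 (0.92).

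**Figure D5:**
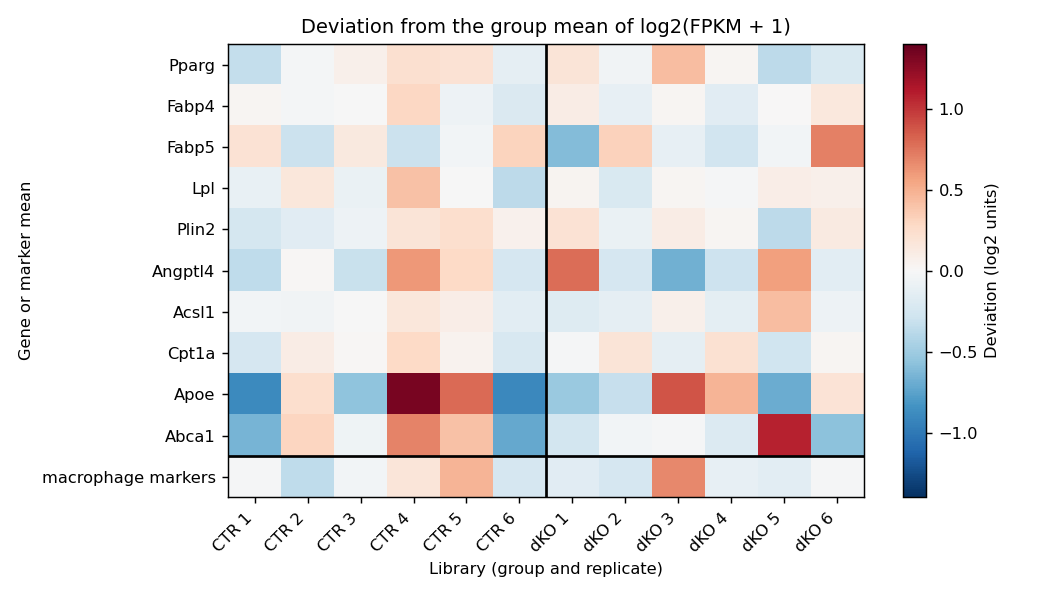
Deviation of each of the 10 genes (rows) from its group mean in each library (columns), in log2(FPKM + 1) units from blue (below the mean) to red (above), with the mean of the macrophage markers as the last row. CTR replicate 4 is red in 9 of the 10 genes, dKO replicate 5 is red for Abca1 (1.08), Angptl4 and Acsl1 and blue for Apoe, Pparg and Plin2, and dKO replicate 3 is red for Apoe (0.88) and Pparg.

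Libraries differed in which genes they raised. CTR replicate 4 was above its group mean for all of the 10 genes but Fabp5, by 1.33 log2 units for Apoe. In dKO replicate 5, Abca1, Acsl1 and Lpl were the highest of the group and Pparg, Plin2, Cpt1a and Apoe the lowest. Replicate 3 of dKO had the highest Pparg, Acsl1 apart from replicate 5, and Apoe, but the lowest Angptl4.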

How the data were processed

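RNA-seq of MLECs was deposited as 1 table of FPKM values for 28689 genes in 12 libraries. The authors trimmed reads with Trimmomatic, aligned them with STAR to the mm39 mouse genome, kept uniquely aligned reads and aligned those again; the submitters' processing notes instead list Bowtie2 2.2.3, HISAT2 2.1.0, TopHat2 and DESeq2. The counter, its annotation and its use of strand are not given in the sources used here. The table names the dKO columns for tamoxifen although CTR mice were given it too; they were assigned from the labels. The labels' extract protocol describes retinas and another kit than the study's methods, which describe lung cells; the latter were followed.

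Because FPKM are not counts, log2(FPKM + 1) was tested with limma 3.58.1 in R 4.3.3 (eBayes with a trend, no covariate) in place of the study's DESeq2, and p was adjusted by Benjamini-Hochberg over 12467 genes, those that reached 1 FPKM in 6 or more libraries. A fold change on this scale understates that of low genes. Whole fragments were recovered from the FPKM steps for 100% of genes within 0.02 fragments, with libraries of 15523054 to 17938286 fragments, and served for depth and as an alternative (limma-voom). Libraries of a group differed beyond sampling noise (chi-square per degree of freedom at least 11.3 over 30 pairs). Single genes were also tested by exact two-sided permutation over 924 splits. Near-identical copies were sought with BLAST 2.17.0. Gene positions are from GENCODE on GRCm39. limma and the recovery of fragments were tested on simulated data. Sequences, recovery and plots were handled in Python 3.11.15 with pandas 2.3.3, NumPy 2.4.6 and Matplotlib 3.10.9.

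The 10 genes, gene lists and marker lists were chosen with earlier results of these data known. Named beside the 10 genes were Sp1, Sp3, the 2 largest rises and 2 largest falls among called genes of each list, a fixed set of receptors, transporters and enzymes, marker genes, and the 5 genes most like Pparg. Alternatives covered the pseudocount, the filter, scaling, the test, a replicate block and leaving out each library.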

Additional observations from a re-analysis of the deposited data

Results flagged for a closer look

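In 20 groups of 6 values (10 genes, both genotypes), a library was called far from the others where its gap to the nearest value, as a share of the group's range, exceeded Dixon's critical value at 95%, which chance gives in about 1 group of 20. Both cases fell on dKO replicate 5. Abca1, the cholesterol efflux pump, was at 47.58 FPKM in that library and between 14.38 and 21.7 FPKM in the other 5 dKO libraries. Acsl1, the acyl-CoA synthetase, was at 5.736 FPKM there and between 3.417 and 4.257 FPKM in the others. That library also had the highest summed endothelial markers (375.7 FPKM) and the lowest summed macrophage and alveolar macrophage markers of the dKO group (2390 and 498.2 FPKM). By the mean of log2(FPKM + 1) over the macrophage markers it was not the lowest, at 6.576 against 6.566 in replicate 1 and 6.486 in replicate 2. The part of these markers in the Abca1 and Acsl1 values was not tested.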

How the results depend on the processing

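Over 26 alternative settings no direction of the 10 genes turned, the number called higher ran from 5 to 8 and the number called lower was 0. Fabp4, Lpl, Plin2, Apoe and, in the 25 settings that tested it (an FPKM minimum of 5 left it out), Acsl1 kept their calls, and Pparg and Cpt1a passed in none. Without the filter on low values, Fabp5 (log2 fold change 0.487, adjusted p 0.0962) and Abca1 (0.802, adjusted p 0.0741) were no longer called, nor by exact permutation (0.487, adjusted p 0.0766, and 0.802, adjusted p 0.0572), nor was Fabp5 after rescaling to TPM (0.445, adjusted p 0.0632). Angptl4 was called with median-of-ratios scaling (0.65) and with array weights (0.552). Leaving out each library in turn gave log2 fold changes of 0.347 to 0.609 for Fabp5, 0.586 to 0.942 for Abca1 and 0.405 to 0.695 for Angptl4, and between 5 and 7 genes called higher. The cause was not tested. The setting that sums Fabp5 with its copies was added after seeing the data. The box GGCGGG in place of GGGCGG was found for 6 in place of 5 genes.

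Whether equal replicate numbers pair the samples is not stated, and the libraries did not settle it. Same-numbered libraries correlated in their deviations by 0.44, 0.16, -0.05, 0.57, 0.01 and -0.11, and the same number was the best match for 2 of 6. With the replicate number as a block, Abca1 had a log2 fold change of 0.802 (adjusted p 0.00624), 7 of the 10 genes were called higher and 0 lower, and over all genes 2675 were higher and 4280 lower, against 2549 and 4065 without it.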
